A study of Danio rerio with 48 samples.

Results

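Voltage-gated sodium channels, the proteins that permethrin acts on, were followed gene by gene in the brains of zebrafish whose founders had met this insecticide early in life. The 8 subunit names reported are scn1laa, scn1lab, scn8aa, scn8ab, scn12aa, scn2b, scn3b and scn4bb, matched by symbol to the Ensembl IDs of the count data. The name table drops the final letter of several of them, and where it did so every ID of that symbol was taken. These are 9 of 32520 measured genes, 5 alpha and 4 beta subunits: scn1laa (ENSDARG00000086819), scn1lab (ENSDARG00000062744), SCN8A (ENSDARG00000005775 and ENSDARG00000018032), scn12aa (ENSDARG00000090724), SCN2B (ENSDARG00000101713), SCN3B (ENSDARG00000062359) and SCN4B (ENSDARG00000060319 and ENSDARG00000099031). For both symbols with a pair of IDs the table does not tell the a copy from the b copy. All symbols in capitals stand for zebrafish genes.

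All fish were adults of the AB laboratory line, and RNA came from the whole dissected brain. The founders, F0, were the exposed generation, at 10 µg/L of permethrin in early life, and F1 and F2 were their unexposed descendants. Each generation held 4 libraries from females and 4 from males of the group coded PH, read here as the permethrin lineage, and as many of the group coded SCA, read as the control, which gave 48 libraries in 12 groups of 4. The labels do not spell these codes out, and they are silent on whether the 4 fish per group had different parents or tanks. Each p-value therefore measures the spread between these fish. Libraries are named by generation, sex, arm and the number of their label, as in F0_F_PH 9.

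A voltage-gated sodium channel is built around a single large alpha subunit that forms the pore, senses voltage and carries the site at which pyrethroids bind. Pyrethroids such as permethrin slow the closing of these channels, so that sodium keeps flowing after the action potential. Beta subunits are small membrane proteins with an immunoglobulin-like fold outside the cell. They set how the pore gates and how many channels reach the membrane, and they act as adhesion molecules at the axon initial segment and the nodes of Ranvier.

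Each F0 library held 7655600 to 8072590 gene counts. The range was 4802830 to 10032800 for F1 and 7381620 to 7680350 for F2. Levels are CPM, counts scaled to a common library size on library sizes scaled over all 48 libraries. Of 18 neuronal and 10 oligodendrocyte markers, all were detected in every library. The neuronal list was lower in F1, where the median deviation of its genes from their mean over 48 libraries was -0.36 to -0.10 (log2), against -0.02 to 0.30 in F0 and -0.06 to 0.41 in F2. Skeletal muscle markers summed to 1270 CPM in F2_F_SCA 8 and to at most 419 CPM in any F0 library and 101 CPM in any F1 library. F0_M_PH 12 and F2_M_PH 11 were the libraries highest in the neuronal list in their generations, at deviations of 0.34 and 0.30 from the generation mean. These 3 libraries, with F0_F_SCA 18 and F0_M_SCA 6, had stood apart from their groups in an earlier look at these data, and the tests between arms were repeated without them. In bulk brain RNA, fewer cells of a type and less RNA per cell cannot be told apart. Each generation is a set of fish of its own, so generation cannot be told apart from tank, day or sequencing run. In F0 males the PH libraries were sequenced on lane 4 and the SCA libraries on lane 2. Arm and lane can therefore not be told apart in F0 males, and the F0 mean of both sexes shares this limit. No lane is given for F1.

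Among the alpha subunits, SCN8A (ENSDARG00000005775) is a copy of the gene for Nav1.6, which in mammals is the main channel of the mature axon initial segment. It was at 139 to 273 CPM over the 48 libraries, with a median of 220. Its group means ran from 163 ± 17.1 CPM in F1 PH males to 245 ± 19.9 in F0 PH females (SD, n = 4 each). The second SCN8A gene, ENSDARG00000018032, lay at 18.8 to 63.0 CPM, with group means from 23.8 ± 3.83 in F2 PH females to 54.2 ± 6.59 in F0 SCA males. The gene scn1lab, whose loss gives zebrafish larvae seizures and is used as a model of Dravet syndrome, was at 41.6 to 116 CPM, lowest in F1 PH males (56.7 ± 13.7) and highest in F0 PH females (108 ± 13.6). These 3 alpha subunits were thus present in all 48 brains within a range of 3.35-fold or less for each gene.

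The other 2 alpha subunits were scarce. scn12aa had 2 to 22 reads per library, 0.294 to 2.68 CPM. scn1laa, the paralog of scn1lab, had 0 reads in 40 of 48 libraries and 11 reads in all, at most 3 in a library. It passed no filter on low counts and no comparison of it was possible at this depth.

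Of the beta subunits, SCN2B, which in mammals is tied to the pore by a disulfide bond, varied from 6.96 CPM in F2_F_PH 5 to 111 CPM in F0_M_PH 17, a range of 15.9-fold. SCN3B, which binds the alpha subunit without a covalent bond, was at 8.58 to 43.8 CPM. SCN4B, which in mammals has a tail that can block the open pore and gives the resurgent sodium current of fast-firing neurons, had the widest ranges. ENSDARG00000099031 ran from 0.119 to 25.7 CPM, and ENSDARG00000060319 from 0 reads in 2 F1 males to 9.48 CPM.

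Set in order of their means, neighbouring groups overlapped in their libraries for every named gene, except that for SCN4B (ENSDARG00000099031) F0 PH females lay below F0 SCA males. Sorting by the mean brings like groups together, and scn1laa is at 0 in most libraries, so this overlap is given as a description of the order and nothing is read from it.

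**Figure D1:**
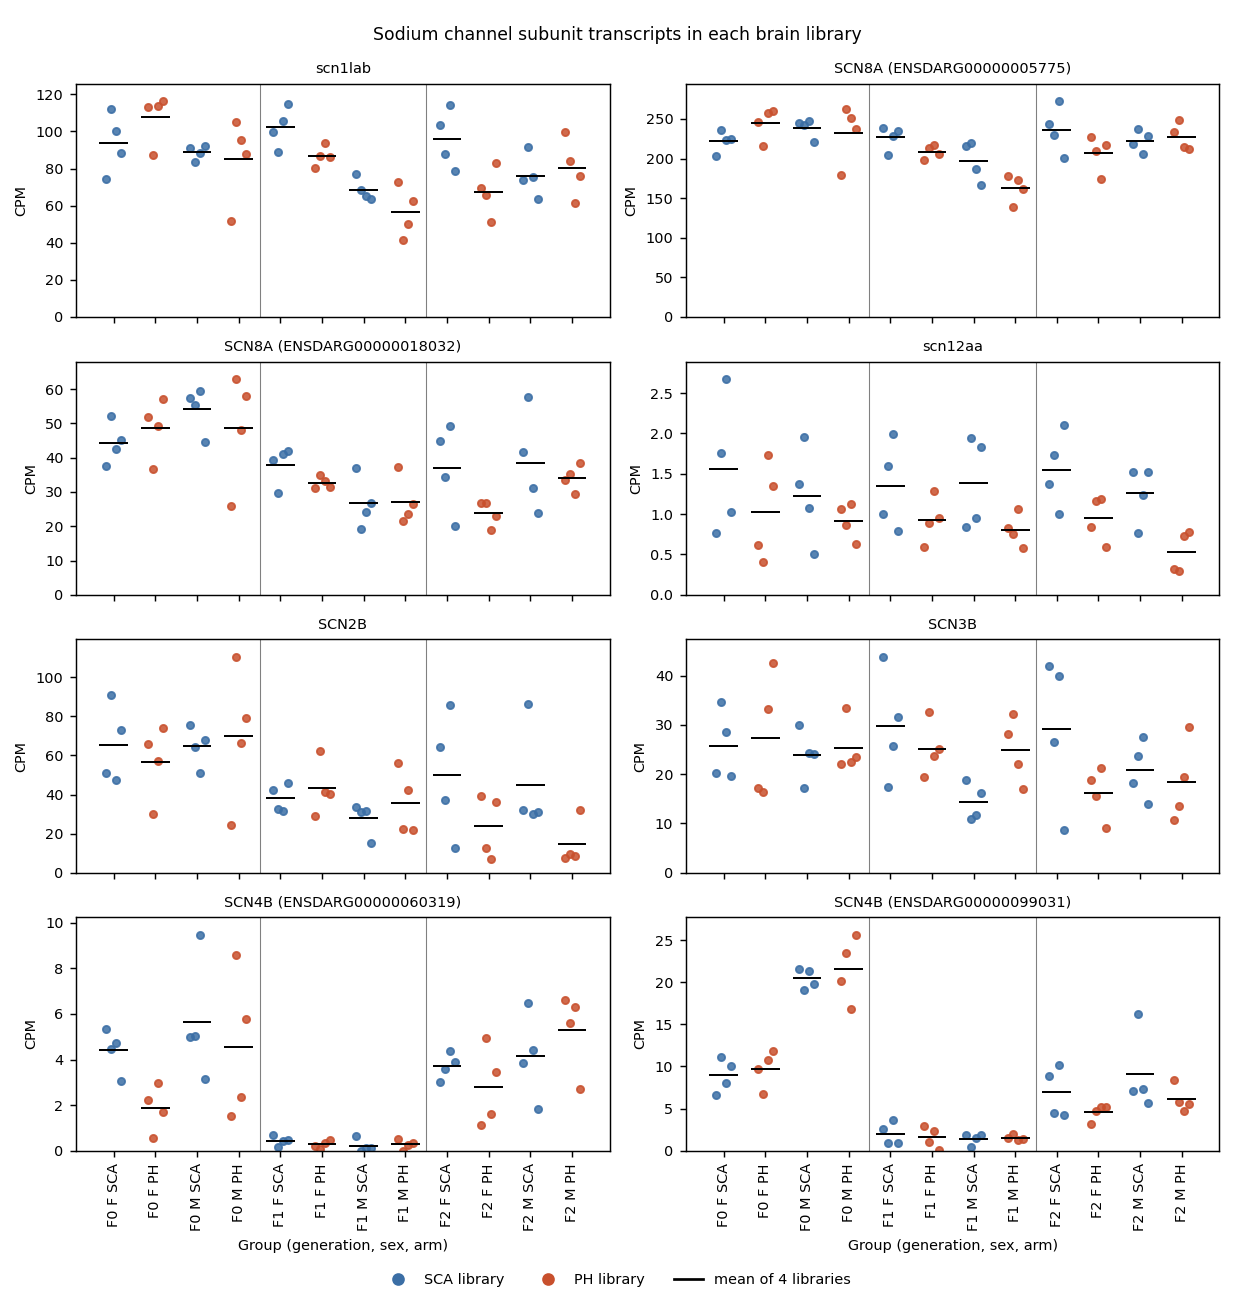
Level of each of 8 subunit genes (CPM, linear axes from 0) in each library, by generation, sex and arm. Points are libraries, blue for SCA and orange for PH, and black lines are means of 4. scn1laa, at 0 reads in 40 of 48 libraries, is left out. Both SCN4B genes lie near 0 in all 4 F1 groups, and SCN4B (ENSDARG00000099031) is about as high in both arms of F0 males.

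Whether exposure, or descent from exposed fish, went with a changed subunit level was tested in each sex and generation. None of the named subunits passed the edgeR test at a Benjamini-Hochberg adjusted p under 0.05 in any of these comparisons, and DESeq2 called 0 as well. In F0, 0 of 8 tested members were called in females and 0 in males, against 0% of all tested genes in each, and 0 with the sexes averaged or contrasted, again against 0%. In F1, 0 of 7 were called, against 0.0663% of all genes in females and 0.105% in males. With the sexes averaged the share of all genes was 0.68%, and for the contrast between them it was 0%. In F2, 0 of 8 were called, against 0.137% in females, 0.0171% in males, 1.1% with the sexes averaged and 0.0114% for the contrast between them. At an unadjusted p under 0.05 there was 1 member in F0 females and 0 in F0 males, against 5.09% and 6.06% of all genes. In F1 there were 0 in females and 2 in males, against 7.94% and 8.94%. In F2 there were 2 in each sex, against 20.9% of all genes in females and 8.81% in males, so that the count in F2 females lies near the share of all genes. With the sexes averaged these were 1 (F0), 3 (F1) and 4 (F2), against 7.46%, 11.4% and 23.7% of all genes. For the contrast between the sexes they were 0 (F0), 1 (F1) and 1 (F2), against 3.2%, 5.11% and 5.67%. The adjusted counts of 0 lie near the background. Without the 5 libraries that stood apart, edgeR again called 0 members in females, in males and with the sexes averaged, in F0 and F2. The contrast between the sexes was not refitted without them.

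In exposed F0 females the alpha subunits scn1lab and SCN8A (ENSDARG00000005775) overlapped with their controls. The 4 F0 PH females had scn1lab at 113, 87.6, 114 and 116 CPM, and the 4 SCA females at 74.3, 112, 100 and 88.4 CPM. The log2 fold change was 0.19 ± 0.17 (SE), with a 95% interval of -0.18 to 0.56. For SCN8A (ENSDARG00000005775) it was 0.13 ± 0.10, with an interval of -0.09 to 0.34. For scn12aa, with few reads, it was -0.61, with an interval of -1.66 to 0.44. In F0 males scn12aa was at -0.44, with an interval of -1.52 to 0.65. The median over the 8 tested members was 0.09 in females and -0.07 in males, against 0.00 and -0.01 over all genes. Both medians changed sign in alternatives, over ranges of -0.11 to 0.20 in females and -0.19 to 0.08 in males. The arms of F0 males also differed in lane.

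The largest fold between arms in F0 was that of SCN4B (ENSDARG00000060319). It stood at 2.22, 0.535, 2.97 and 1.71 CPM in the 4 PH females and at 5.35, 4.44, 4.75 and 3.08 CPM in the 4 SCA females. All 4 PH females lay below all 4 SCA females, which held for 1 member and, in either direction, for 3.53% of all genes. On the log2 scale the arms differed by -1.25 ± 0.52 (SE, edgeR adjusted p = 0.933). In F0 males the same gene had 1.52, 8.60, 2.37 and 5.79 CPM in PH and 4.99, 5.02, 9.48 and 3.15 in SCA fish, which overlapped. In no other sex or generation did a member separate the arms, against 3.55% of genes in F0 males, 5.54% in F1 females, 4.43% in F1 males, 9.17% in F2 females and 4.64% in F2 males.

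In F1, 5 of 7 tested members lay below 0 over both sexes, with a median log2 fold change of -0.15 against -0.02 over all genes. SCN8A (ENSDARG00000005775) stood at 178, 139, 173 and 162 CPM in the 4 PH males and at 216, 219, 186 and 167 CPM in the 4 SCA males. The arms overlapped at 1 control library, and the log2 fold change was -0.28 ± 0.10 (SE, edgeR adjusted p = 0.411). SCN3B went the other way in these males, at 28.2, 32.3, 22.2 and 16.997 CPM in PH against 18.8, 10.8, 11.8 and 16.2 CPM in SCA, with a log2 fold change of 0.78 ± 0.27 (adjusted p = 0.37 by edgeR). PH male 8 lay within the control range, and neither gene passed the test.

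In F2 females, the 8 named genes that were tested lay below 0 in PH fish, with a median log2 fold change of -0.65 against 0.02 over all genes. scn1lab stood at 69.6, 65.5, 51.2 and 82.9 CPM in the 4 PH females and at 103, 87.6, 114 and 78.5 CPM in the 4 SCA females. Only SCA female 9, the lowest control, reached into the PH range. Its log2 fold change was -0.54 ± 0.17 (SE, edgeR adjusted p = 0.135). SCN8A (ENSDARG00000018032) was at 26.7, 26.9, 18.8 and 22.9 CPM in PH and at 44.7, 34.3, 49.2 and 20.01 CPM in SCA females, giving -0.67 ± 0.27 on the log2 scale (edgeR adjusted p = 0.19). Without F2_F_SCA 9 both passed, at -0.63 (adjusted p = 0.0474) and -0.87 (adjusted p = 0.0463) by edgeR, so that 1 control library decided this count. Without F2_F_SCA 8, a library that stood apart, and F2_M_PH 11 they were at -0.44 (adjusted p = 0.326) and -0.50 (adjusted p = 0.451) by edgeR.

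In F2 males scn1lab and SCN8A (ENSDARG00000005775) lay at log2 fold changes of 0.06 ± 0.17 and 0.02 ± 0.10 (SE), with 95% intervals of -0.30 to 0.43 and -0.20 to 0.24. SCN2B was at 7.56, 9.71, 8.63 and 32.0 CPM in the 4 PH males and at 32.0, 86.2, 30.0 and 30.8 CPM in the 4 SCA males. PH males 11, 12 and 6 lay below every control, and PH male 9 lay among the controls. scn12aa had 0.315, 0.294, 0.731 and 0.774 CPM in PH and 1.52, 0.765, 1.2405 and 1.53 CPM in SCA males. In both sexes of every generation its group mean was lower in PH. The PH means were 0.529 to 1.02 CPM and the SCA means 1.23 to 1.56 CPM. Over both sexes its log2 fold change was -0.52 ± 0.36 in F0 (SE, edgeR adjusted p = 0.785). In F1 it was -0.63 ± 0.30 in the fit on all 48 libraries (SE, edgeR adjusted p = 0.381). The scn12aa values given for F0 and F2 come from the fit of each generation, so the F1 value is not on the same footing. This order of the group means was not tested. The share of all genes with the same order was not computed, so the order is not read as particular to scn12aa. Over both sexes of F2 SCN2B lay at -1.36 ± 0.46 (log2, SE, adjusted p = 0.12 by edgeR) and scn12aa at -0.96 ± 0.28 (adjusted p = 0.0925 by edgeR). SCN2B passed without F2_M_PH 9, at -1.75 (edgeR adjusted p = 0.0481), and in a fit on all 48 libraries, at -1.35 ± 0.36 (edgeR adjusted p = 0.0326). Without the libraries that stood apart it was at -1.06 (edgeR adjusted p = 0.344). In that F2 comparison the 8 named genes that were tested lay below 0, with a median of -0.48 against 0.01 over all genes.

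**Figure D2:**
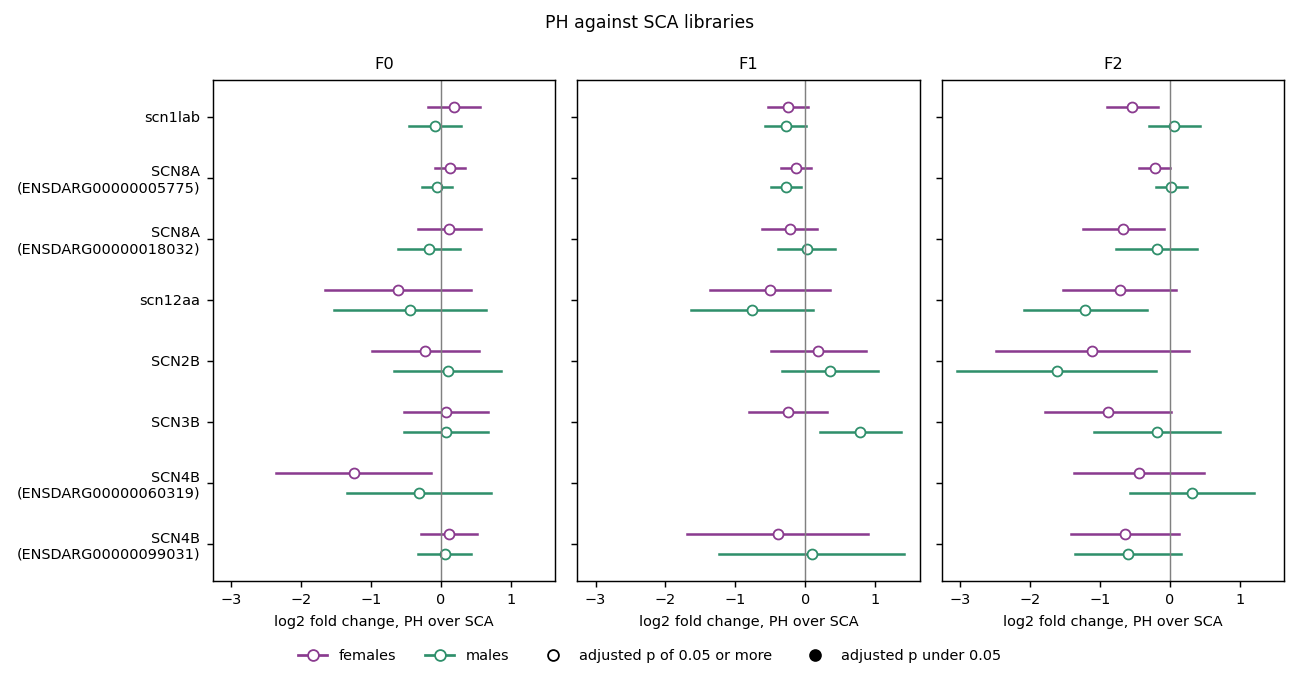
log2 fold change of PH over SCA libraries for 8 subunit genes in F0, F1 and F2, females in purple and males in green. Points are edgeR estimates with 95% intervals, open where the adjusted p was 0.05 or more. Every point is open, and in F2 females the 8 shown lie left of 0. SCN4B (ENSDARG00000060319) was not tested in F1.

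The ribosomal protein genes and the channel's own partners were set beside these F2 values. The ribosomal list is 81 genes of the cytosolic ribosome, and the partner list is 24 genes for proteins that anchor or regulate the channel, among them ankyrins, spectrins, neurofascin, contactins and FGF-homologous factors. In F2 females the ribosomal list median, as a deviation from the generation mean (log2), was 0.10, 0.19, 0.26 and 0.14 in PH fish and -0.48, 0.08, -0.33 and 0.20 in SCA fish. SCA females 4 and 8, lowest in ribosomal genes, were highest in both scn1lab and SCN8A (ENSDARG00000018032), and SCA female 9, highest among the controls in ribosomal genes, was lowest in both. Among F2 males, F2_M_PH 11 was highest both in ribosomal genes, at 0.36, and in scn1lab, at 99.8 CPM. The partner list was at -0.18 to 0.00 in PH and -0.14 to 0.27 in SCA females of F2. In F2 males it was at -0.06 to 0.04 in PH and -0.21 to 0.25 in SCA fish. Sequencing lane also differed, as PH females 3 and 4 of F2 came from lane 2 and the other 14 libraries of F2 from lane 3. With lane as a covariate the log2 fold change of scn1lab in F2 females was -0.55 (edgeR adjusted p = 0.308). The part of ribosomal and partner genes in these values was not tested.

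Across libraries within a generation, 48 correlations were computed, of 8 members with the 2 lists in 3 generations. For these, each list median was over deviations of its genes from their mean over all 48 libraries, not from the generation mean. With Benjamini-Hochberg adjustment over the 48, Pearson's r of 25 had an adjusted permutation p under 0.05. These were split over F0, F1 and F2 as 5, 0 and 4 with the ribosomal list and as 4, 6 and 6 with the partner list. The share of all genes that would pass the same test was not computed, so these counts are not read as particular to the members. SCN8A (ENSDARG00000018032) had the closest relation with ribosomal genes in F0, with Pearson's r of -0.93 and Spearman's rho of -0.92 over 16 libraries (adjusted permutation p = 0.00024 for both) and r of -0.88 without the 2 libraries farthest from the median. In F2 its r was -0.82 and rho -0.84 (adjusted permutation p = 0.00112 and 0.00134), with r of -0.74 without the farthest 2. In F1 its r was -0.21 and rho -0.28 (adjusted permutation p = 0.554 and 0.377), with r of 0.13 without the farthest 2. For scn1lab with ribosomal genes in F2, r was -0.51 and rho -0.41 (adjusted permutation p = 0.074 and 0.174), with r of -0.34 without the farthest 2. Whether these relations differ between generations was not tested.

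With its partners the same SCN8A gene had r of 0.88 and rho of 0.90 in F0 (adjusted permutation p = 0.00024 for both), and r of 0.78 without the farthest 2 libraries. In F1 r was 0.88 and rho 0.88 (adjusted permutation p = 0.00024 and 0.00048), and r was 0.81 without the farthest 2. In F2 r was 0.86 and rho 0.84 (adjusted permutation p = 0.00048 and 0.00108), and r was 0.85 without the farthest 2. SCN2B ran opposite to ribosomal genes in F0 (r = -0.80, rho = -0.66, adjusted permutation p = 0.00149 and 0.0243) and F2 (r = -0.80, rho = -0.68, adjusted permutation p = 0.00114 and 0.0195), with r of -0.69 and -0.73 without the farthest 2. In F1 its r was 0.04 and its rho 0.03 (adjusted permutation p = 0.893 and 0.945), with r of 0.27 without the farthest 2. For scn12aa no relation passed with either list in any generation. The libraries share their scaling, and all 4 groups of a generation enter each value.

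**Figure D3:**
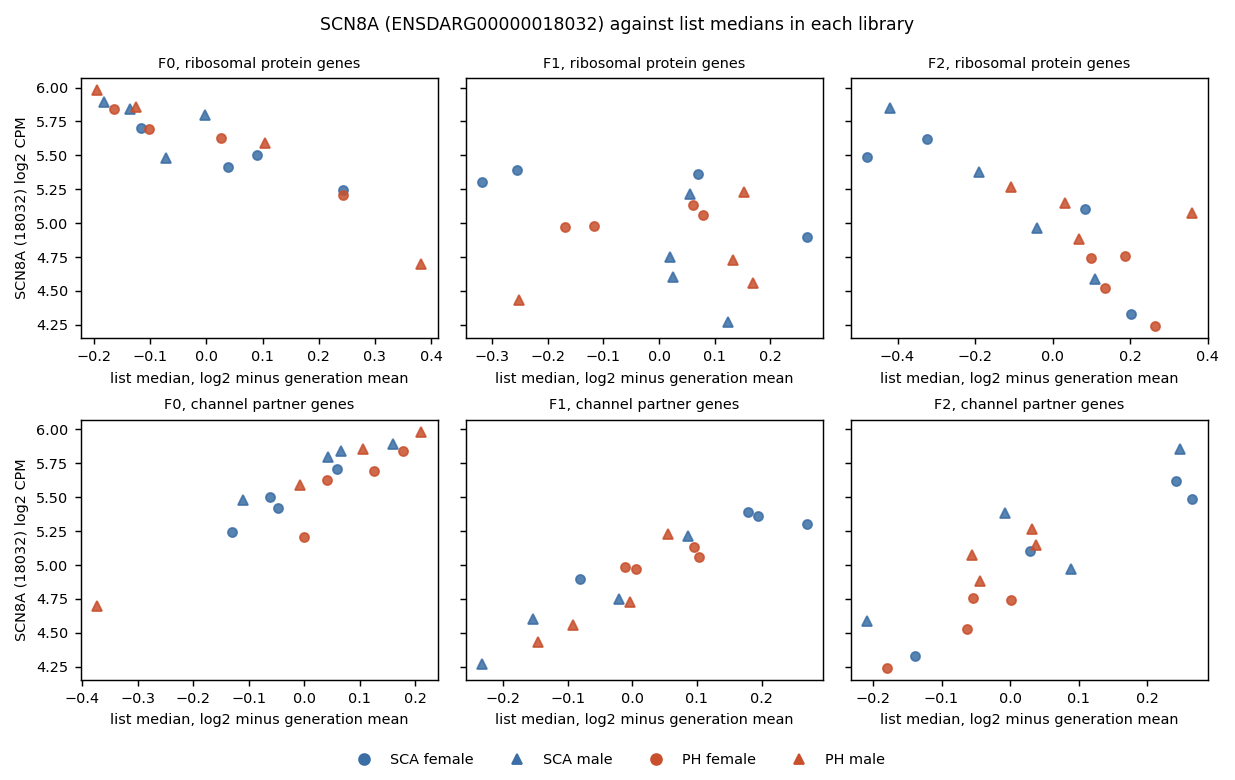
Level of SCN8A (ENSDARG00000018032, log2 CPM) in each library against the median of the ribosomal protein list (upper panels) and of the channel partner list (lower panels), each as a log2 deviation from the generation mean. Circles are females and triangles males, blue for SCA and orange for PH. From left to right, r is -0.93, -0.21 and -0.82 with the ribosomal list, and 0.88, 0.88 and 0.86 with the partner list. These r were computed on list medians as deviations from the mean over 48 libraries, so they are not those of the plotted points. The difference between generations was not tested.

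A difference in the response between generations was tested directly in the fit on 48 libraries. No member was called in females, against 0.178% of all genes, and none in males, against 0.21%. The smallest unadjusted p among members was that of scn1lab in females (edgeR adjusted p = 0.356) and of SCN2B in males (edgeR adjusted p = 0.396). Each was the only member with an unadjusted p under 0.05, against 11.4% of all genes in females and 9.26% in males. These counts lie near the share of all genes. In females scn1lab had log2 fold changes of 0.19, -0.25 and -0.54 in F0, F1 and F2.

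Between the sexes, unlike between the arms, some members passed the test. In F0, 1 of 8 members differed between females and males, lower in females, against 4.85% of all genes. SCN4B (ENSDARG00000099031) was at 6.62 to 11.8 CPM in the 8 females, with a median of 9.87, and at 16.8 to 25.7 CPM in the 8 males, with a median of 20.8. No female reached the lowest male, and the log2 fold change was -1.14 ± 0.13 (SE, edgeR adjusted p = 0.000329). The call was made in all 16 fits that left out 1 library. The share of all genes that separate the 8 females from the 8 males of F0 was not computed.

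F0 females and PH males were sequenced on lane 4, and SCA males on lane 2, so sex and lane cannot be told apart in F0 SCA fish. In PH fish, all on lane 4, SCN4B (ENSDARG00000099031) was at 9.73, 6.69, 10.8 and 11.8 CPM in females. PH males had it at 20.2, 23.5, 16.8 and 25.7 CPM. The share of all genes that separate these PH fish by sex was not computed, and the part of lane was not tested. Oligodendrocyte markers also differed between the sexes of F0. Of the 10, 6 were called lower in F0 females by edgeR and 0 higher, against 4.85% of all genes called. The list's deviation from the generation mean was -0.49 to -0.00 (log2) in females and -0.22 to 0.50 in males. Genes of the hox clusters, which mark caudal hindbrain and spinal cord, were also spread, with deviations of -3.10 to 0.84 in females and -0.21 to 1.54 in males, with 0 of 15 tested genes called by edgeR. Among F0 females, F0_F_PH 16 was highest both in hox genes, at 0.84, and in this SCN4B gene, at 11.8 CPM. F0_F_SCA 14 was lowest in both, at -3.10 and 6.62 CPM. Among F0 males, F0_M_PH 22 was highest in both, at 1.54 and 25.7 CPM. F0_M_SCA 6, the male lowest in hox genes at -0.21, had the gene at 19.1 CPM. F0_M_PH 19, the male lowest in the gene at 16.8 CPM, was at 0.78 in hox genes. Among F0 females the oligodendrocyte list was at -0.41 in F0_F_PH 16, highest in the gene. It was at -0.00, its highest value in females, in F0_F_SCA 14, lowest in the gene. Among F0 males it was lowest, at -0.22, in F0_M_PH 19. In F1 this SCN4B gene was at 0.27 ± 0.44 in females relative to males (log2, SE), on 1 to 35 reads per library. In F2 it was at -0.39 ± 0.25. The myelin list's deviation had a median of -0.25 in females and 0.31 in males of F0. Its medians were -0.13 and 0.15 in F1, and -0.19 and 0.15 in F2. In F1 the list was thus lower in females by median, as in F0 and F2, while the estimate for the gene lay above 0. The part of myelin and of hox-expressing tissue in the sex difference was not tested. Of 23 tested channel partners, 2 were called higher and 2 lower in F0 females, against 4.85% of all genes called. The higher were ank2b at 0.24 ± 0.06 and cntn1a at 0.35 ± 0.06 (log2, SE). The lower were CNTN1 at -0.26 ± 0.06 and cntnap1, a gene for the paranodal junction, at -0.44 ± 0.11. The adjusted p by edgeR of these partners was 0.00426 to 0.0318.

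In F1, 2 of 7 members were higher in females, against 3.45% of all genes. scn1lab was at 80.0 to 115 CPM in the 8 females and at 41.6 to 77.3 CPM in the 8 males, which did not overlap, with females at 0.61 ± 0.10 (log2, SE) relative to males (edgeR adjusted p = 0.00847). SCN8A (ENSDARG00000005775) was at 199 to 239 CPM in females and 139 to 219 CPM in males, higher in females by 0.30 ± 0.07 (log2, SE, edgeR adjusted p = 0.0352). For this gene the ranges overlapped. The share of all genes that separate the 8 females from the 8 males of F1 was not computed.

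The scn1lab call was made in all 16 fits that left out 1 F1 library, and that of SCN8A (ENSDARG00000005775) in 5. The count fell to 1 without F1_F_PH 2, F1_F_PH 9, F1_F_PH 10, F1_M_PH 6, F1_M_PH 7, F1_M_PH 8, F1_F_SCA 4, F1_F_SCA 7, F1_F_SCA 8, F1_M_SCA 10 or F1_M_SCA 12, with an adjusted p by edgeR of 0.0585 to 0.0835 for SCN8A. Without F1_M_PH 4 or F1_M_SCA 5, SCN8A (ENSDARG00000018032) was called as well, and without F1_F_SCA 6 SCN3B was. Of 23 tested channel partners, 3 were called higher in F1 females and 1 lower, against 3.45% of all genes called. NEDD4L, a ubiquitin ligase that withdraws sodium channels from the membrane, was at 0.58 ± 0.10 (edgeR adjusted p = 0.0117). ANK3 was at 0.50 ± 0.09, NRCAM at 0.44 ± 0.10 and, lower, fgf11b at -0.40 ± 0.10. UNC80, a partner of the sodium leak channel, was higher in F1 females by 0.72 ± 0.17 (log2, SE, edgeR adjusted p = 0.0325). In F2, 0 of 23 tested partners were called between the sexes by edgeR, against 0.114% of all genes, with CNTN1 of smallest p at -0.16 ± 0.06 (edgeR adjusted p = 0.419). The cerebellar list was at -0.12 to 0.58 in F1 females and -0.81 to 0.37 in F1 males (log2 deviation from the generation mean). These ranges overlapped, with medians of 0.19 and -0.17. The oligodendrocyte list was at -0.32 to 0.09 in F1 females and -0.25 to 0.57 in F1 males, with medians of -0.13 and 0.15. The part of either list was not tested.

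In F2, 0 of 8 members were called between the sexes by edgeR and 0 by DESeq2, against 0.114% of all genes by edgeR. At an unadjusted p under 0.05 there were 0, against 9.11% of all genes. Whether the sex difference itself varied between generations was tested in the joint fit, where 0 members passed, against 0.105% of all genes, and 4 of 8 had an unadjusted p under 0.05, against 14.1%. The smallest were SCN8A (ENSDARG00000005775, edgeR adjusted p = 0.173) and SCN4B (ENSDARG00000099031, edgeR adjusted p = 0.182). A sex difference particular to F0 or F1 was therefore not shown for any member.

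**Figure D4:**
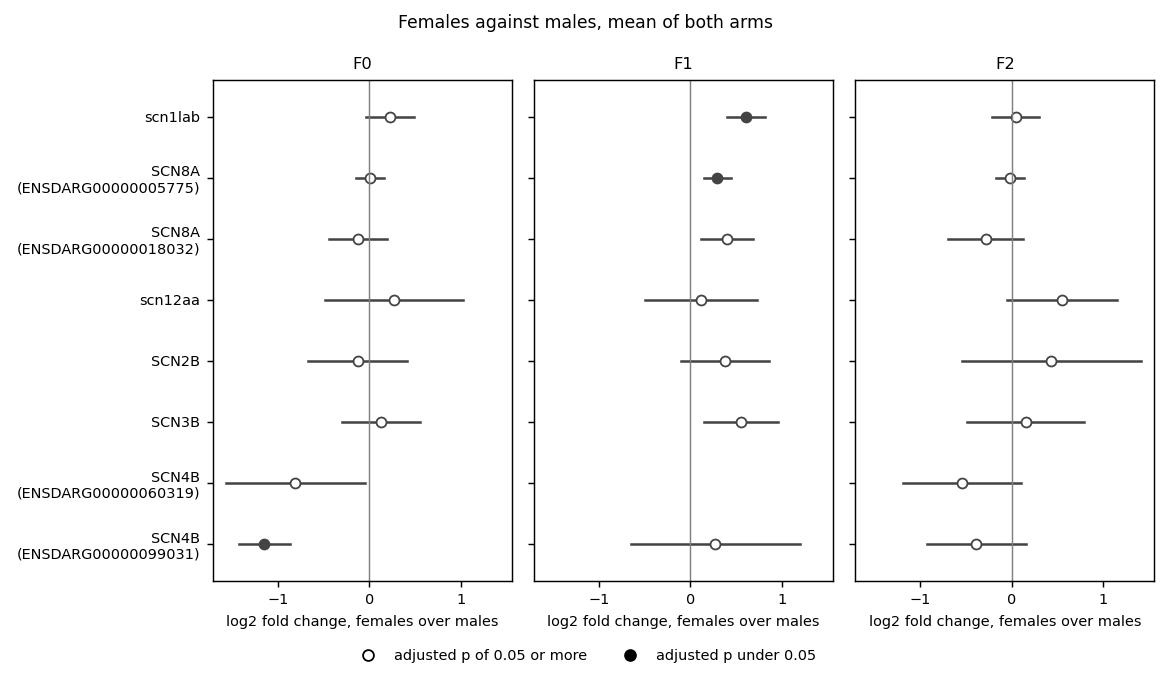
log2 fold change of females over males, averaged over both arms, for 8 subunit genes in F0, F1 and F2. Points are edgeR estimates with 95% intervals, filled where the adjusted p was under 0.05. Filled points are SCN4B (ENSDARG00000099031) left of 0 in F0, and scn1lab and SCN8A (ENSDARG00000005775) right of 0 in F1.

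The widest differences of all were between generations, and the SCN4B genes led them. SCN4B (ENSDARG00000099031) was at 6.62 to 25.7 CPM in F0 (median 14.3), at 0.119 to 3.68 in F1 (median 1.502) and at 3.21 to 16.2 in F2 (median 5.60), over 16 libraries each. F1 lay apart from F0 and met F2 only at the edge of its range. The share of all genes that separate F1 from F0 in this way was not computed. SCN4B (ENSDARG00000060319) was at 0.535 to 9.48 CPM in F0 (median 3.80), at 0 to 0.671 in F1 (median 0.278) and at 1.12 to 6.61 in F2 (median 3.89). Its reads came to 533 in F0, 42 in F1 and 455 in F2.

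In SCA fish, 4 of 8 members were lower in F1 than in F0, against 43% of all genes called. SCN4B (ENSDARG00000060319) fell by 3.89 on the log2 scale (SE 0.44, edgeR adjusted p = 3.76e-09) and SCN4B (ENSDARG00000099031) by 2.96 (SE 0.30, edgeR adjusted p = 3.15e-10). The first of them passed the filter on low counts through F0 and F2 and failed it in F1 alone, so that its difference was partly fixed by the filter, while the second passed in each generation. SCN8A (ENSDARG00000018032) fell by 0.62 (SE 0.17, edgeR adjusted p = 0.00281) and SCN2B by 0.997 (SE 0.35, edgeR adjusted p = 0.0198). All 4 calls were made in each of the 16 fits that left out 1 SCA library of F0 or F1. A count of 4 of 8 lies near the share of all genes. Beside these values, 77 of 80 ribosomal protein genes were called higher in F1 and 10 of 18 neuronal markers lower, with 6 higher, by edgeR, and the part of either was not tested.

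From F1 to F2 in SCA fish, 2 of 8 members were higher, against 29.1% of all genes, and both were SCN4B genes, up by 3.54 ± 0.44 and 2.20 ± 0.30 (log2, SE; adjusted p = 3.57e-08 and 2.4e-07 by edgeR). The first of these values, of ENSDARG00000060319, was again partly fixed by the filter, which this gene passed only through the generations where it is high. From F0 to F2, 0 were called by edgeR, against 10.8% of all genes, with 2 of 8 at an unadjusted p under 0.05, against 28.5%. The nearest was SCN4B (ENSDARG00000099031) at -0.76 ± 0.27 (SE, edgeR adjusted p = 0.055). It was called lower by DESeq2, which called 1 member, and by edgeR without F0_F_SCA 14, F2_F_SCA 4, F2_F_SCA 8 or F2_M_SCA 5 (adjusted p = 0.0106 to 0.042). Without F2_M_SCA 5 SCN8A (ENSDARG00000018032) was called lower too (edgeR adjusted p = 0.0321).

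The PH fish, which share no library with the SCA fish, gave the same contrasts their own values. From F0 to F1, 5 of 8 members were lower, against 46.1% of all genes, and SCN4B (ENSDARG00000060319) fell by 3.33 (SE 0.46) and SCN4B (ENSDARG00000099031) by 3.23 (SE 0.31). The limit set by the filter holds for ENSDARG00000060319 in PH fish too, here and from F1 to F2. The other 3 were scn1lab at -0.45 ± 0.12, SCN8A (ENSDARG00000005775) at -0.37 ± 0.07 and SCN8A (ENSDARG00000018032) at -0.71 ± 0.17 (SE, edgeR adjusted p = 4.69e-05 to 0.00215). From F1 to F2, 3 were higher and SCN2B fell by 1.081 on the log2 scale (SE 0.36, edgeR adjusted p = 0.0191), against 32.3% of all genes. The SCN4B genes rose by 3.72 (SE 0.46) and 1.77 (SE 0.31) and SCN8A (ENSDARG00000005775) by 0.23 (SE 0.07).

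**Figure D5:**
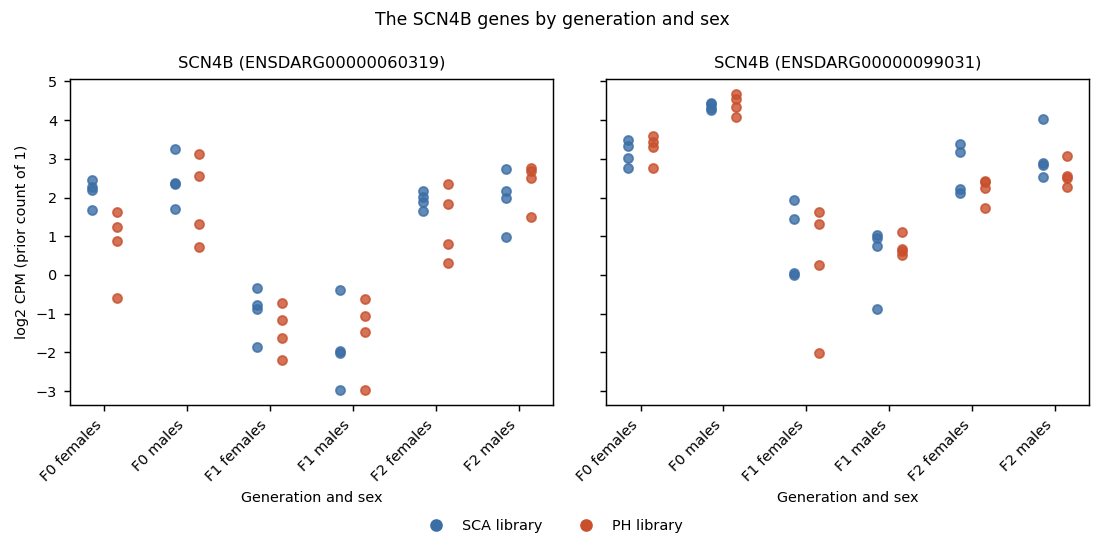
Level of the SCN4B genes (log2 CPM with a prior count of 1) in each library by generation and sex, blue for SCA and orange for PH. Points are single libraries, 4 per arm, sex and generation. Both genes are lowest in F1 in both sexes and arms, and in F0 the right-hand gene is higher in every male than in any female.

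The same comparisons were made for other sodium channel genes and for the channel's partners. Of 7 further names listed for sodium channels and the sodium leak channel, 5 matched 6 IDs, which include both SCN4B genes already described. The muscle channels scn4aa and scn4ab stood at 0 to 0.671 and 0 to 1.25 CPM and were tested in no comparison. NALCN, the sodium leak channel that sets resting excitability, went the other way from SCN4B, at 64.8 to 92.0 CPM in F0, 94.5 to 129 in F1 and 42.0 to 95.8 in F2. In SCA fish it was higher in F1 than in F0 by 0.44 ± 0.08 (log2, SE, edgeR adjusted p = 2.97e-05), and it was called in the same comparison of PH fish too. UNC80 was at 28.1 to 103, 19.2 to 81.1 and 16.9 to 84.2 CPM in the 3 generations.

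Of the 24 partner genes, 17 differed between F0 and F1 in SCA fish, 6 higher and 11 lower, with a median log2 fold change of -0.29, against 43% of all genes called. The smallest p was that of cntnap1, a gene for the paranodal axon-glia junction, at -1.25 ± 0.14 (SE, edgeR adjusted p = 2.61e-09). Neither list held a gene called for PH against SCA in any of the 6 single-sex comparisons by edgeR. Among partners the genes of smallest p were CNTN1 in F0 females (0.18 ± 0.09), SPTAN1 in F0 males (0.17 ± 0.06), cntnap1 in F1 females (-0.56 ± 0.25), FGF13 (ENSDARG00000056633) in F1 males (0.25 ± 0.13), NEDD4L in F2 females (-0.50 ± 0.10, edgeR adjusted p = 0.0623) and SPTAN1 in F2 males (0.16 ± 0.09). In F2 females 16 of 23 tested partners lay below 0, with a median of -0.19. Among the further channel genes it was NALCN in males of F0, F1 and F2 (0.11 ± 0.09, 0.21 ± 0.11 and -0.34 ± 0.15), UNC80 in females of F1 and F2 (-0.29 ± 0.23 and -1.10 ± 0.35) and SCN4B (ENSDARG00000060319) in F0 females.

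Within groups the subunits did not move as a single block. As deviations from group means over 48 libraries, scn1lab followed SCN8A (ENSDARG00000005775) with r of 0.80 and SCN8A (ENSDARG00000018032) with r of 0.76, and the latter followed SCN2B with r of 0.71. scn1lab had r of 0.20 with SCN3B, and of -0.18 with scn12aa, which has few reads. These values are descriptions, since the libraries share their scaling. The genes most like the mean of the 4 measured alpha subunits over 48 libraries, of 16971 candidates, were RNF19B (r = 0.89), unm_sa1261 (0.88), CIT (ENSDARG00000088825, 0.88), MAST2 (0.88) and MMP24 (0.88).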

How the data were processed

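Whole-brain total RNA was read in pairs on the BGISEQ-500 platform, as the labels' protocols state. The submitters' processing notes list STAR 2.7, HTSeq 0.11.2, DESeq2 1.24.0 and build GRCz11. Neither strand setting nor annotation release is given in the sources used here. Reads of overlapping or antisense genes can therefore not be told apart, and reads shared by near-identical copies may be missing. The authors deposited raw counts per gene and library. Genes held 31.4 to 36.6% of each total, and 5 summary lines (60.3 to 65.4% no feature) stayed out of library sizes and tests. By generation, genes held 32.1 to 34.0% in F0, 34.8 to 36.6% in F1 and 31.4 to 32.7% in F2. F1 thus lay above both, and the part of this in the differences between generations was not tested. The name table gave symbols to 29201 IDs and none to 3319.

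For every generation a model with 4 group means was fitted to its 16 libraries by edgeR 4.0.16 (R 4.3.3), with filterByExpr, TMM and robust quasi-likelihood tests. It tested 18081 (F0), 18094 (F1) or 17505 (F2) genes. A joint fit held 12 group means, 48 libraries and 19062 genes. A call needs an adjusted p under 0.05 after Benjamini-Hochberg correction over all tested genes. SEs come from the F statistic. Correlations used 100000 permutations. The scripts were tested on simulated data. Over 72 replicate pairs the chi-square divided by its degrees of freedom was at least 4.44, so none was a duplicate.

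Members and lists were chosen with earlier results of these data known. Some genes that the rule matches are not reported here, so every count, direction and median over members covers the named genes only, not all genes of the rule, and would differ over all of them. All other members are named. From the lists of channel partners and further sodium channels, called genes or else the gene of smallest p in each single-sex comparison are named, and the 5 genes most like the alpha subunits (mean CPM of at least 1). Genes named for sex or generation in those lists were chosen after their values were seen. Alternatives were DESeq2 1.42.0 (test and size factors), no filter, other sets of libraries, lane, a replicate block and leaving out each library. The PH contrasts between generations, the test of sex differences between generations and the hox list were added after seeing the data. A planned ordering of levels between genes was not run, since transcript lengths were not used here.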

Additional observations from a re-analysis of the deposited data

Results flagged for a closer look

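In 8 of 108 groups of 4 libraries, 1 library lay far from the other 3 by Dixon's criterion, which chance meets in about 1 group in 20. That rate does not hold for scn1laa, whose groups at 0 reads in all 4 libraries are counted but could not be flagged. SCN2B was high in F2_M_PH 9 at 32.0 CPM (nearest 9.71), high in F2_M_SCA 5 at 86.2 CPM (nearest 32.0) and low in F1_M_SCA 12 at 15.4 CPM (nearest 31.2). F2_M_SCA 5 also had SCN4B (ENSDARG00000099031) at 16.2 CPM (nearest 7.30). scn1lab was low in F0_F_PH 9 at 87.6 CPM (nearest 113). SCN3B was high in F0_M_PH 17 at 33.5 CPM (nearest 23.4). The scn1laa values of 0.127 CPM in F0_F_SCA 14 and 0.118 CPM in F1_M_PH 7 are 1 read each. The other 3 libraries of each group were at 0, so any read would meet the criterion.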

How the results depend on the processing

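The number of members called moved by over 1.5 times in 3 of the alternatives other than leaving out each library. It was 1 in place of 0 for PH against SCA over both sexes of F2 in the fit on all 48 libraries (SCN2B), and 1 in place of 0 for F2 against F0 in SCA fish with DESeq2 (SCN4B, ENSDARG00000099031). Without the filter on low counts it was 1 in place of 2 for F1 females against males. Leaving out each library gave 1 to 3 members for F1 females against males, 0 to 2 for PH against SCA in F2 females, 0 to 1 over both sexes of F2, and 0 to 2 for F2 against F0 in SCA fish. The cause was not tested. Log2 fold changes of single members were followed through the alternatives only where their unadjusted p in the main fit was under 0.05. None of those changed sign, which this choice makes likely, and the signs of the others were not followed. Of 18 medians over members, 8 changed sign in at least 1 alternative. Among them is PH against SCA in F0 males, at 0.06 without the libraries that stood apart in place of -0.07. The other 74 counts of these alternatives, and 223 of those with 1 library left out (17 did not), stayed within 1.5 times. Numbers 15 and 16 occur in both arms of F0 females, with correlations of deviations of 0.115 and 0.118. These libraries share only a number, and with the replicate block 0 members were called. Ordering levels between genes, with its alternatives, was not run. Counts of 2 to 22 reads limit scn12aa, and scn1laa could not be tested.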
